A study of Homo sapiens with 4 samples.

Results

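The genes described here encode the heat shock proteins of the cytosol and the mitochondria together with their regulator, HSF1. They were taken as the probe sets whose platform annotation gives exactly 1 gene symbol, equal to HSF1, HSPA8, HSP90AA1, HSP90AB1, HSPB1, HSPH1, DNAJB1, HSPD1, HSPE1 or BAG3. Of these 10 genes, 9 were measured, each by 1 probe set, out of 33458 genes measured in all. The probe set of HSPA8, the constitutive HSP70, carried 3 symbols and was left out, and the inducible HSP70 genes HSPA1A and HSPA1B share their probe sets and were left out as well.

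Total RNA was measured on 4 Affymetrix arrays in MG-63 and Saos-2, established cell lines of human osteosarcoma. The 4 conditions were MG-63 with sh-circ_0000073, MG-63 with sh-NC, Saos-2 with sh-circ_0000073 and Saos-2 with sh-NC, with 1 array each. sh-circ_0000073 is a short hairpin RNA against the circular RNA hsa_circ_0000073 and sh-NC is the control hairpin, and all 4 cultures were transfected with one of them by lipofection. The sample titles write si-hsa_circ_0000073 and si-NC for the same conditions. No time after transfection, no untransfected culture and no second hairpin against the circular RNA is labelled on these arrays, and hsa_circ_0000073 itself was not analysed here.

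Heat shock proteins are chaperones that bind unfolded or unstable proteins and help them to fold, to assemble or to be cleared. HSF1 is held inactive by chaperones and, when unfolded proteins occupy these, it binds heat shock elements in the promoters of chaperone genes and raises their transcription. The HSP70 system, with its J-domain and exchange factors, passes clients on to HSP90, while HSPD1 and HSPE1 form the folding chamber of the mitochondrial matrix, and cancer cells are known to rely on both.

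A heat shock element is built of inverted repeats of the 5-base unit NGAAN, and the start regions of the listed genes, HSPA8 included and HSF1 not, show how differently they carry it. The motifs searched on both strands were the 3-unit forms GAANNTTCNNGAA and TTCNNGAANNTTC, which are reverse complements of each other, and the 2-unit forms GAANNTTC and TTCNNGAA, each its own reverse complement and each contained in the 3-unit forms. The windows were RefSeq promoter sequences of build GRCh38.p14, from 250 bases before to 50 bases after a start, and 9 of the 10 genes had 15 of them. A 3-unit form was found in 172 of 35116 windows of all genes (0.49%) and in 4 of the 15 windows here, 1 each of HSPA8, HSP90AA1, HSP90AB1 and HSPD1. A 2-unit form was found in 13.5% of all windows and in 7 of the 15, which adds 1 window of HSPB1 and 2 of DNAJB1. A match describes these letters only and does not show that HSF1 binds there.

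The first 3 sequences are shown because they hold 3-unit forms, in capitals together with the 2-unit forms. They are from HSP90AA1, at chr14:102087045-102087164 on the minus strand and ending 1 base before a start, from HSP90AB1, at chr6:44247768-44247857 on the plus strand and 175 to 86 bases before a start, and from HSPD1, at chr2:197500031-197500090 on the minus strand and 250 to 191 bases before the second of its 2 annotated starts.
HSP90AA1: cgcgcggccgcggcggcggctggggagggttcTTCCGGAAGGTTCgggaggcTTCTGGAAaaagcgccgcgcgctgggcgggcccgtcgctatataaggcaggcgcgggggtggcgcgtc
HSP90AB1: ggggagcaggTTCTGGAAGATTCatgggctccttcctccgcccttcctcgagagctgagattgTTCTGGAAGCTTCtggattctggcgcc
HSPD1: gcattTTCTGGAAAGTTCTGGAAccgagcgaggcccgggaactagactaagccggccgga
HSP90AB1 held 2 separate 3-unit forms, whereas in HSPD1 both 3-unit forms overlapped in 1 run of repeats.

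The next pair is shown because it holds 2-unit forms alone, in capitals. They are from DNAJB1, at chr19:14518398-14518497 on the minus strand, and from HSPB1, at chr7:76302473-76302672 on the plus strand, and each ends 1 base before a start.
DNAJB1: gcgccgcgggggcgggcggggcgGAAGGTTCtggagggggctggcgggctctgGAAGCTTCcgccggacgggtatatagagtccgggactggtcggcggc
HSPB1: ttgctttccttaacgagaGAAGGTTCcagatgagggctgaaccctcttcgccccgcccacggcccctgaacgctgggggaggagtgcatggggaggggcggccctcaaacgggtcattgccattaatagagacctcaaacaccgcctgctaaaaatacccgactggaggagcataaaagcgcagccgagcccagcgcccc
DNAJB1 held the head-to-head form GAANNTTC at 2 places, and HSPB1 held it once.

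HSPE1 and HSPD1 lie head to head, and the last sequence is the whole stretch of 104 bases between the start of HSPE1 and the first start of HSPD1, at chr2:197500275-197500378 on the strand of HSPE1, the plus strand. It holds no match, so no base is in capitals.
HSPE1: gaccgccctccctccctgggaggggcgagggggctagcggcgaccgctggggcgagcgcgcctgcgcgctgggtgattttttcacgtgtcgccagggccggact
No window of HSPH1, HSPE1 or BAG3 held either form, and HSF1 is named only. The window of HSPE1 began at chr2:197500129, so the run of repeats printed for HSPD1, at lower positions, lay outside it. Bases further upstream of HSPE1 were not searched for HSPE1.

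The values are log2 signals as the authors deposited them, so that a difference of 1 is a doubling, and they are compared only within a gene. The array medians lay between 3.74 and 3.75. All 9 measured genes had a mean log2 signal of at least 6, the level minimum used here, as did 12091 of the 36176 probe sets with 1 symbol. Each condition has 1 array with no replicate, so the number of arrays limits the precision, and fewer cells of a type and less RNA per cell cannot be told apart. Of the genes that check the lines, RB1, which is disrupted in Saos-2, had 11.91 and 11.90 in the MG-63 pair, against 5.78 and 6.17 in the Saos-2 pair, each with sh-circ_0000073 before sh-NC. The alkaline phosphatase gene ALPL of osteoblasts had 3.97 and 3.89 in the MG-63 pair, near the array medians and not set apart from background, against 15.81 and 16.57 in the Saos-2 pair, so no size is given for its difference. Of 9 osteoblast and mesenchymal markers, 1 (SPP1) lay under 6 on every array, and limma called 3 higher and 5 lower in MG-63. The 3 higher ones were the intermediate filament gene VIM, with a line difference, MG-63 minus Saos-2, of 5.05, the matrix gene SPARC (1.74) and the collagen gene COL1A2 (1.59). The 5 lower ones were ALPL, RUNX2 (-8.82), COL1A1 (-1.51), IBSP and SP7. IBSP had 3.54 and 3.62 in the MG-63 pair, against 12.73 and 13.23 in the Saos-2 pair. SP7 had 2.94 and 2.83 in the MG-63 pair, against 8.66 and 9.77 in the Saos-2 pair. Both lay under the array medians in MG-63. The median of the 9 per array was 7.57 to 7.72 in MG-63 and 12.73 to 13.23 in Saos-2. Of 12 markers of other cell types, 11 were measured and 7 lay under 6 on every array, with medians of 4.03 to 4.20 in MG-63 and 4.13 to 4.37 in Saos-2. The exceptions that separated the lines were CD68, a lysosomal protein abundant in macrophages, at 13.47 and 14.23 in the MG-63 pair, against 5.92 and 4.92 in the Saos-2 pair, and the epithelial adhesion gene EPCAM, at 3.43 and 3.26 in the MG-63 pair, against 9.59 and 9.45 in the Saos-2 pair. KRT8 and KRT18, keratins of epithelia, lay above 6 on every array. The part of these markers in the line differences below was not tested.

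Which heat shock genes differ between the lines was asked first. All 9 differed in the same direction with both hairpins, the smallest mean difference being 1.03 on the log2 scale (HSPD1, lower in MG-63). For 8 of the 9 this mean difference was larger than the hairpin change in either line, the exception being HSPD1 in MG-63. The share of all probe sets for which this holds was not counted. At a level of at least 6 the median size of the line difference was 1.04. The median size of the hairpin change at that level was 0.33 in MG-63 and 0.32 in Saos-2, so this order is not particular to the 9 genes. HSPB1, DNAJB1, HSP90AB1 and BAG3 were higher in MG-63, while HSPH1, HSPE1, HSP90AA1, HSF1 and HSPD1 were lower in MG-63 than in Saos-2. limma, with the line and the hairpin as terms, called 9 of the 9 genes at an adjusted p under 0.05, against 25.7% of all probe sets with 1 symbol (13.7% higher and 11.9% lower in MG-63) and 55.1% of those at a level of at least 6 (29.2% and 25.9%). The arrays of the lines did not overlap for any of the 9, as for 59.0% of all probe sets and 79.5% of those at that level. In this test the 2 hairpin conditions stand in for replicates of a line, so that each gene has 1 residual degree of freedom until limma moderates its variance. The median size of the line difference was 1.46 for the 9 genes, 1.04 for all probe sets at a level of at least 6 and 0.33 for all probe sets.

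**Figure D1:**
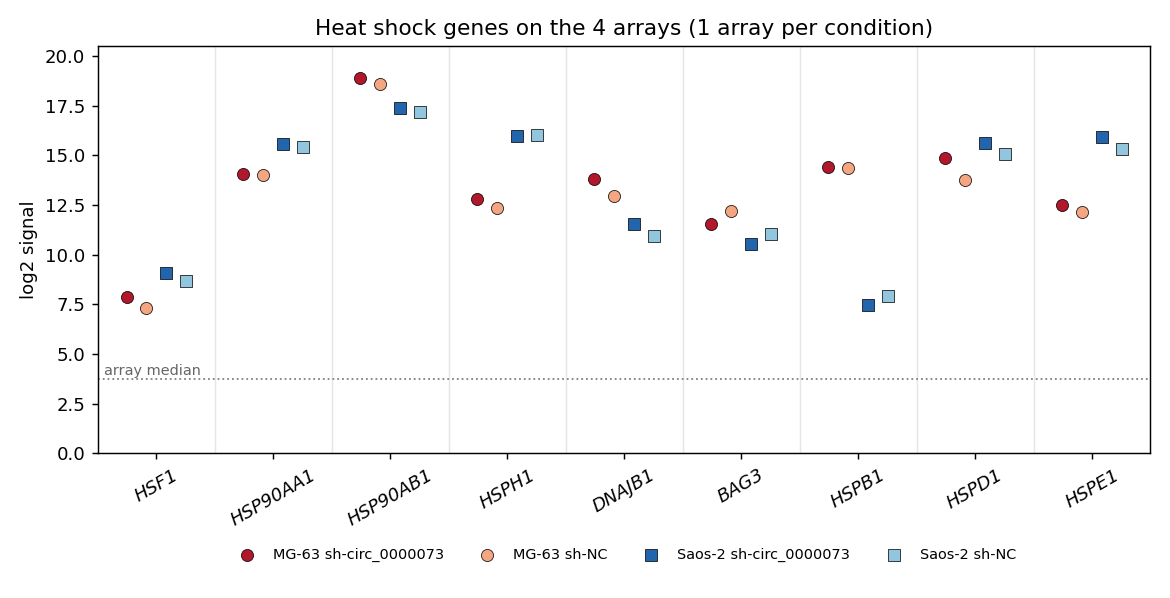
Log2 signal of the 9 measured genes on each array, with MG-63 as circles and Saos-2 as squares, the sh-circ_0000073 array in the dark shade and the sh-NC array in the light shade, and the dotted line at the array median of 3.75. For every gene the pair of points of one line lies apart from the pair of the other, and the gap is widest for HSPB1, at 14.43 and 14.38 in the MG-63 pair, against 7.45 and 7.90 in the Saos-2 pair.

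HSF1, the transcription factor that drives the heat shock response, had log2 signals of 7.88 with sh-circ_0000073 and 7.32 with sh-NC in MG-63, and of 9.10 with sh-circ_0000073 and 8.68 with sh-NC in Saos-2. Both Saos-2 arrays lay above both MG-63 arrays. The line difference, MG-63 minus Saos-2, was -1.29 (standard error 0.28, limma adjusted p = 0.0123). Among 7 heat shock factors and factor-binding proteins, 5 were measured and 2, HSF1 and its inhibitor HSBP1, had a mean level of at least 6. HSBP1 differed by -0.35 (standard error 0.24, limma adjusted p = 0.38) and was not called.

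The cytosolic HSP90 genes differed between the lines in opposite directions. HSP90AA1, the stress-inducible form, had log2 signals of 14.06 with sh-circ_0000073 and 14.03 with sh-NC in MG-63, and of 15.55 with sh-circ_0000073 and 15.41 with sh-NC in Saos-2. Its line difference was -1.44 (standard error 0.19, limma adjusted p = 0.00105), with both Saos-2 arrays above both MG-63 arrays. HSP90AB1, the constitutive form, had 18.90 with sh-circ_0000073 and 18.57 with sh-NC in MG-63, and 17.38 with sh-circ_0000073 and 17.17 with sh-NC in Saos-2. Its line difference was 1.46 (standard error 0.14, limma adjusted p = 0.000181), with both MG-63 arrays above both Saos-2 arrays. The highest value of any probe set on the 4 arrays was 19.93, and whether signals of this size are compressed was not tested.

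Of 24 genes for HSP90 and its co-chaperones, 21 were measured, and 7 were higher and 6 lower in MG-63 by limma. Of all probe sets at a level of at least 6, 29.2% were higher and 25.9% lower there. PPID, an HSP90-binding prolyl isomerase, was 3.99 higher in MG-63, with 16.76 and 16.54 in the MG-63 pair, against 13.14 and 12.19 in the Saos-2 pair, each with sh-circ_0000073 before sh-NC. FKBP5, the HSP90-binding immunophilin of steroid receptors, had a line difference of -3.43, with 7.69 and 8.04 in the MG-63 pair, against 11.50 and 11.08 in the Saos-2 pair. Both were called by limma (adjusted p = 2.08e-05 for PPID and 0.000151 for FKBP5).

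Of the genes that work with HSP70, HSPH1 and DNAJB1 lay on opposite sides. HSPH1, the HSP110 chaperone that releases nucleotide from HSP70, had log2 signals of 12.81 with sh-circ_0000073 and 12.35 with sh-NC in MG-63, and of 15.97 with sh-circ_0000073 and 16.00 with sh-NC in Saos-2. Its line difference of -3.41 (standard error 0.22, limma adjusted p = 3.07e-05) is a 10.6-fold lower signal in MG-63. DNAJB1, the J-domain protein that delivers clients to HSP70, had 13.82 with sh-circ_0000073 and 12.97 with sh-NC in MG-63, and 11.53 with sh-circ_0000073 and 10.95 with sh-NC in Saos-2. Its line difference was 2.16 (standard error 0.24, limma adjusted p = 0.000428). Of the 3 genes described in this paragraph BAG3, a co-chaperone that links HSP70 to selective autophagy, had the smallest line difference. It had 11.54 with sh-circ_0000073 and 12.20 with sh-NC in MG-63, and 10.56 with sh-circ_0000073 and 11.03 with sh-NC in Saos-2, a difference of 1.08 (standard error 0.25, limma adjusted p = 0.0163).

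The lists around them were split as well, as were all probe sets at a level of at least 6 (29.2% higher and 25.9% lower in MG-63). Of 14 HSP70 and HSP110 genes 11 were measured, and 4 were higher and 2 lower in MG-63 by limma. HSPA2, an HSP70 first known from testis, had 7.82 and 7.67 in the MG-63 pair, against 4.29 and 4.50 in the Saos-2 pair, where it was not set apart from background. HSPA4L, an HSP110 relative, had a line difference of -2.86. Of 32 J-domain genes 31 were measured, and 7 were higher and 10 lower in MG-63, among them the HSP70 partners DNAJA2, with a line difference of 2.83, and DNAJA1, with one of -2.30. All 14 exchange and release factors were measured, 6 of them higher and 3 lower in MG-63. GRPEL2, an exchange factor of mitochondrial HSP70, had a line difference of 4.21, and BAG2, an inhibitor of the ubiquitin ligase CHIP, had one of -3.03.

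HSPB1, the small heat shock protein HSP27 that holds unfolded proteins and binds actin, showed the widest gap of the 9 genes. Its log2 signals were 14.43 with sh-circ_0000073 and 14.38 with sh-NC in MG-63, and 7.45 with sh-circ_0000073 and 7.90 with sh-NC in Saos-2. The difference of 6.73 (standard error 0.27, limma adjusted p = 4.26e-06) is a 106-fold higher signal in MG-63, with the Saos-2 signals still above the array medians. A line difference of at least 6 in either direction was found for 0.882% of all probe sets with 1 symbol and for 2.64% of those at a level of at least 6. CRYAB, the αB-crystallin of the same family, had 10.09 and 9.70 in the MG-63 pair, against 3.34 and 3.22, under the array medians, in the Saos-2 pair, each with sh-circ_0000073 before sh-NC. Of 9 small heat shock protein genes 8 were measured, 2 being higher (HSPB1 and CRYAB) and 2 lower (HSPB3 and HSPB7) in MG-63 by limma. HSPB8, which binds BAG3, differed by -0.20 (standard error 0.26, limma adjusted p = 0.664).

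The mitochondrial chaperonin genes HSPD1 and HSPE1, whose proteins HSP60 and HSP10 work as one machine, were both lower in MG-63 but by unequal amounts. HSPD1 had log2 signals of 14.88 with sh-circ_0000073 and 13.77 with sh-NC in MG-63, and of 15.64 with sh-circ_0000073 and 15.06 with sh-NC in Saos-2. Its line difference was -1.03 (standard error 0.21, limma adjusted p = 0.00916), and the MG-63 sh-circ_0000073 array lay only 0.18 under the Saos-2 sh-NC array. HSPE1 had 12.51 with sh-circ_0000073 and 12.15 with sh-NC in MG-63, and 15.90 with sh-circ_0000073 and 15.30 with sh-NC in Saos-2. Its line difference of -3.27 (standard error 0.21, limma adjusted p = 3.06e-05) is a 9.65-fold lower signal in MG-63. The difference between these 2 line differences was not tested.

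The lists around the mitochondrial chaperonin were split in direction. Of 20 mitochondrial chaperone and protease genes 19 were measured, 7 being higher and 4 lower in MG-63 by limma, and TRAP1, the mitochondrial HSP90, was 2.29 higher in MG-63. Of 15 subunits of the cytosolic chaperonin and prefoldin 13 were measured, 4 higher and 4 lower in MG-63, with the prefoldin genes PFDN1 and PFDN5 3.03 and 2.48 higher there. Of 20 chaperones and enzymes of the endoplasmic reticulum, all measured, 19 were higher in MG-63 and 0 lower by limma, against 4 and 5 of the 9 heat shock genes. Over all probe sets limma called 13.7% higher and 11.9% lower in MG-63, and 29.2% and 25.9% at a level of at least 6. HSP90B1, the HSP90 of that compartment, had 12.32 and 12.98 in the MG-63 pair, against 6.08 and 7.01 in the Saos-2 pair, each with sh-circ_0000073 before sh-NC.

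**Figure D2:**
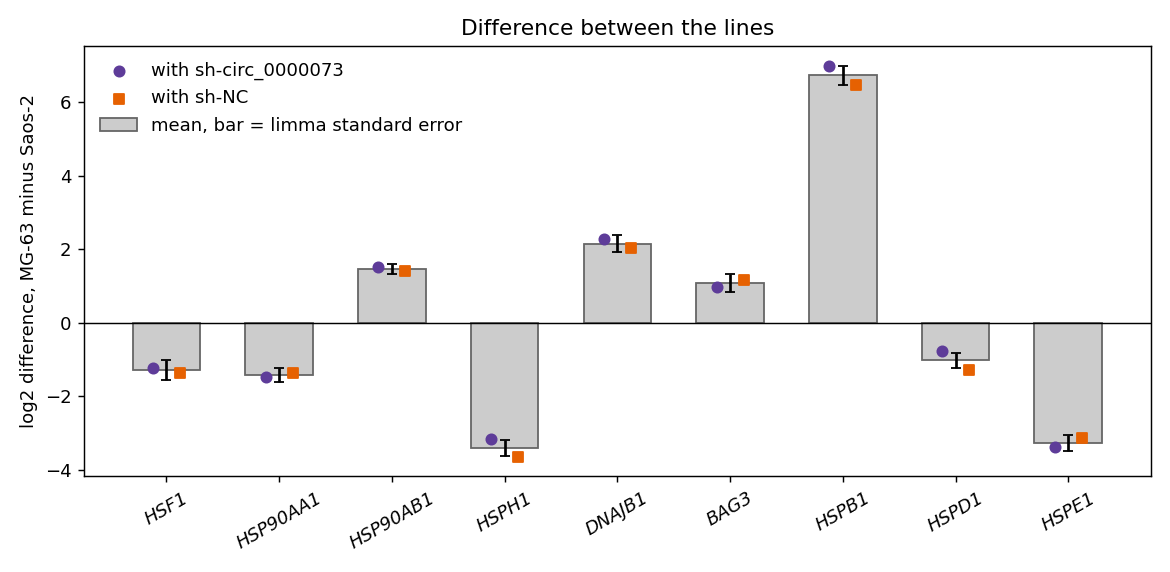
Log2 difference between the lines, MG-63 minus Saos-2, for the 9 genes, as bars with the limma standard error, with the value under sh-circ_0000073 as a circle and that under sh-NC as a square. Circles and squares lie on the same side of 0 for every gene, from -3.41 for HSPH1 to 6.73 for HSPB1.

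Many processed pseudogenes of these genes have probe sets of their own and were set beside them. There were 69 probe sets named as pseudogenes of the 10 genes, 26 of HSPE1, 16 of HSPA8, 15 of HSPD1, 5 of HSP90AB1, 4 of HSP90AA1, 2 of HSPB1 and 1 of DNAJB1. At a mean level of at least 6 were 24, of which 20 had a measured parent gene, and 18 of these 20 had a line difference of the same sign as the parent. The exceptions were HSPE1P11 and HSPE1P26. Of the 20 probe sets, 10 belonged to HSPE1 and 5 to HSPD1, so the count rests on few parent genes. HSPE1P7 had 11.00 and 10.96 in the MG-63 pair, against 14.38 and 13.31 in the Saos-2 pair, HSPE1P8 had 10.15 and 9.90 in the MG-63 pair, against 13.46 and 13.01 in the Saos-2 pair, and HSP90AB4P had 12.85 and 12.02 in the MG-63 pair, against 11.08 and 11.25 in the Saos-2 pair, each with sh-circ_0000073 before sh-NC. HSPB1P1, chosen after its values were seen, had 14.41 and 14.43 in the MG-63 pair, against 7.25 and 7.46 in the Saos-2 pair, a line difference of 7.07. Whether a probe set picks up the transcripts of a near-identical copy was not tested, because the probe sequences were not used here.

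**Figure D3:**
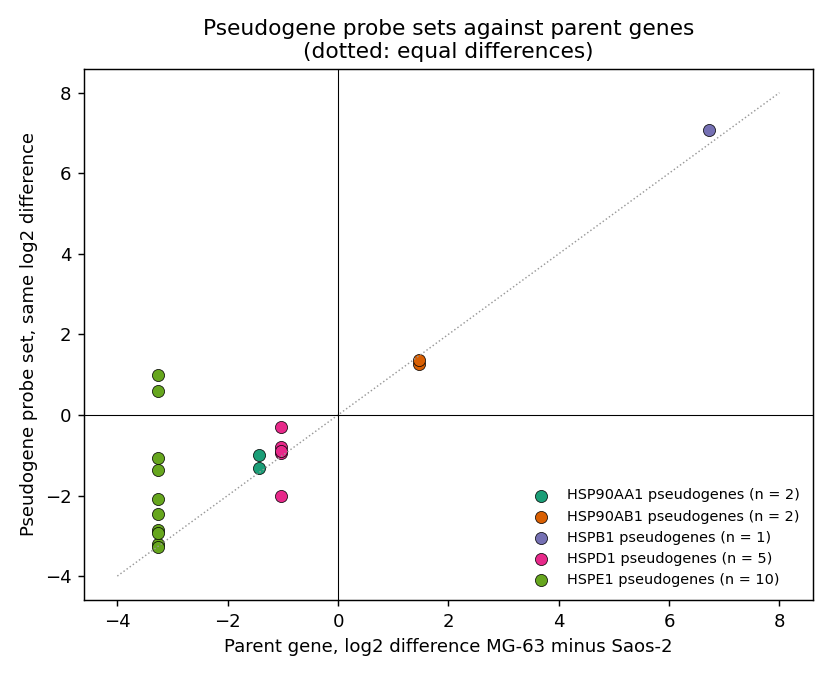
Log2 difference MG-63 minus Saos-2 of each pseudogene probe set with a mean level of at least 6 (vertical axis, 20 points) against that of its parent gene (horizontal axis), coloured by parent, with the dotted line at equal differences. Of the 20 points 18 lie in the quadrants of equal sign, and HSPB1P1 lies near the dotted line at 7.07 against 6.73.

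The second question was what the hairpin against hsa_circ_0000073 did to these genes. HSPD1 and DNAJB1 were the only ones more than 1.5-fold higher with sh-circ_0000073 in MG-63, BAG3 the only one more than 1.5-fold lower there, and HSPE1 the only one past that size in Saos-2, where it was higher. Past 1.5-fold, or 0.585 on the log2 scale, were thus 2 of 9 genes higher (8.93% of all probe sets with 1 symbol) and 1 lower (7.18%) in MG-63. In Saos-2 there were 1 higher (8.91%) and 0 lower (5.22%), and in both lines 0 passed that size upward (1.73% of all probe sets) or downward (1.23%). HSPE1 in Saos-2, at 0.60, was no longer past it after median centring (0.54) or quantile normalization (0.48). At a level of at least 6 these shares of all probe sets were 14.0% upward and 11.4% downward in MG-63, and 15.7% upward and 8.45% downward in Saos-2. Over both lines limma, with the lines standing in for replicates, called 0 of the 9 genes and 0.00% of all probe sets, with adjusted p from 0.579 to 0.963. At an unadjusted p under 0.05 were HSPD1 and DNAJB1, 2 of 9 genes, against 7.26% of all probe sets and 12.7% of those at a level of at least 6. A p that misses the threshold does not show that the signals were equal.

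The change was above 0 in both lines for 6 genes (HSF1, HSP90AA1, HSP90AB1, DNAJB1, HSPD1 and HSPE1), against 30.8% of all probe sets and 36.3% at a level of at least 6, and below 0 in both for BAG3 (21.1% and 21.6%). HSPB1 and HSPH1 had opposite signs in the lines, as did 45.7% of all probe sets and 40.1% at that level. The median change of the 9 genes was 0.36 in MG-63 and 0.21 in Saos-2, against 0.02 and 0.06 over all probe sets and 0.05 and 0.12 at a level of at least 6. The median size of the change, sign aside, was 0.46 in MG-63 and 0.45 in Saos-2, against 0.33 and 0.32 for probe sets at that level. After quantile normalization the change of HSP90AA1 was -0.12 and that of HSPB1 -0.08 in MG-63, both below 0 instead of above it.

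**Figure D4:**
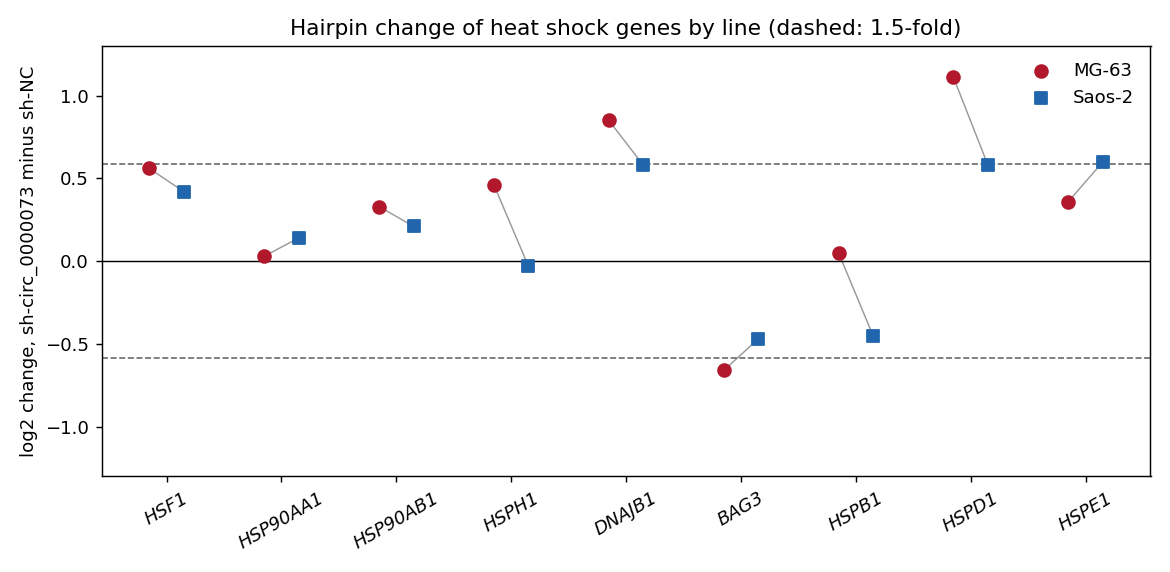
Log2 change, sh-circ_0000073 minus sh-NC, of the 9 genes in MG-63 (circles) and Saos-2 (squares), joined by a line for each gene, with dashed lines at 1.5-fold. HSPD1 at 1.11 and DNAJB1 at 0.85 in MG-63 and HSPE1 at 0.60 in Saos-2 lie above the upper dashed line, and BAG3 at -0.66 in MG-63 lies under the lower one.

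HSF1 was 0.56 higher with sh-circ_0000073 in MG-63 and 0.42 higher in Saos-2, under 1.5-fold in each. Its mean change over the lines was 0.49 (standard error 0.28, limma adjusted p = 0.753). The sh-circ_0000073 array was the higher one in each line, yet the MG-63 arrays stayed under both Saos-2 arrays. HSBP1, which binds HSF1, had changes of -0.07 in MG-63 and 0.28 in Saos-2.

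The HSP90 genes had the smallest mean changes of the 6 genes that were above 0 in both lines. HSP90AA1 had a change of 0.03 in MG-63 and 0.14 in Saos-2, with a mean of 0.09 (standard error 0.19, limma adjusted p = 0.963). HSP90AB1 had 0.33 in MG-63 and 0.21 in Saos-2, with a mean of 0.27 (standard error 0.14, limma adjusted p = 0.721). Of their list of 21 measured genes, 5 passed 1.5-fold upward and 1 downward in MG-63, and 5 upward and 0 downward in Saos-2, with medians of 0.01 and 0.21. FNIP2, a folliculin partner that slows the ATPase of HSP90, had changes of 1.05 in MG-63 and 0.83 in Saos-2. FKBP4, an immunophilin of steroid receptor complexes, had 1.10 and 0.67, and NUDC, a nuclear distribution protein that binds HSP90, had 0.65 and 0.72, in MG-63 and Saos-2 in that order. These 3 were the ones past 1.5-fold in both lines, and limma called 0 genes of the list, with 4 at an unadjusted p under 0.05.

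DNAJB1 was 1.80-fold higher with sh-circ_0000073 in MG-63 (log2 change 0.85) and in Saos-2 1.49-fold higher (0.58), where it lay just under the size threshold. Its mean change was 0.72 (standard error 0.24, limma adjusted p = 0.63). HSPH1 had changes of 0.46 in MG-63 and -0.03 in Saos-2, with a mean of 0.22 (standard error 0.22, limma adjusted p = 0.877). BAG3 was 1.58-fold lower in MG-63 (log2 change -0.66) and 1.39-fold lower in Saos-2 (-0.47), the only one of the 9 genes that was lower in both. Its mean change was -0.57 (standard error 0.25, limma adjusted p = 0.69).

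Among the other genes of the HSP70 system, HSPA4L had the largest mean change at a level of at least 6. HSPA4L had 8.17 with sh-circ_0000073 and 9.30 with sh-NC in MG-63, and 11.04 with sh-circ_0000073 and 12.14 with sh-NC in Saos-2. The changes of -1.13 and -1.10 were near equal, and the mean of -1.12 (standard error 0.27) had a limma adjusted p of 0.565. HSPA4, its close relative, had a change of 0.39 in each line, and HSPA14, a ribosome-bound HSP70, had -0.51 and -0.41. Of the 11 measured HSP70 and HSP110 genes, 0 passed 1.5-fold upward and 2 downward in MG-63, and 0 upward and 1 downward in Saos-2, with medians of -0.12 and 0.08.

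Of 31 J-domain genes, 5 passed 1.5-fold upward and 3 downward in MG-63, and 6 upward and 1 downward in Saos-2, with medians of 0.03 and 0.24 and 3 genes higher in both. At a level of at least 6 the upward counts were 3 in each line, and after quantile normalization MG-63 had 5 downward and Saos-2 had 2. DNAJC21, which acts in ribosome maturation, had changes of 1.21 in MG-63 and 0.72 in Saos-2. The mitochondrial DNAJA3 had -1.01 and -0.24, and DNAJC28 had -0.96 and -0.23. Of 14 exchange and release factors, 0 passed that size upward and 2 downward in MG-63 (BAG3 and HSPA4L), and 1 upward and 1 downward in Saos-2. The upward one was BAG1, another exchange factor of HSP70, with changes of 0.14 in MG-63 and 1.38 in Saos-2, opposite in direction to BAG3. GRPEL1, the exchange factor of mitochondrial HSP70, had 0.45 and 0.46.

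HSPB1 had a change of 0.05 in MG-63 and of -0.45 in Saos-2 and was thus lower with sh-circ_0000073 in the line of its lower signal. Its mean change was -0.20 (standard error 0.27, limma adjusted p = 0.918). Of the 8 measured small heat shock protein genes, 3 passed 1.5-fold upward and 0 downward in MG-63, and 1 upward and 0 downward in Saos-2, with medians of 0.27 and 0.15. HSPB8 had changes of 0.68 in MG-63 and 0.64 in Saos-2, the one gene of the list past 1.5-fold in both, in the opposite direction to its partner BAG3. After quantile normalization or median centring 0 genes of the list passed that size upward in Saos-2, HSPB8 included. HSPB3, a muscle form, had 0.99 and 0.15, and HSPB7, a form of heart muscle, had 0.89 and 0.23, each under 6 on the MG-63 sh-NC array.

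HSPD1 had the largest hairpin change of the 9 genes, with a signal 2.16-fold higher in MG-63 (log2 change 1.11) and in Saos-2 1.49-fold higher (0.58). Its mean change was 0.85 (standard error 0.21, limma adjusted p = 0.579). HSPE1, its neighbour across the 104 bases printed above, had signals 1.28-fold higher in MG-63 (0.36) and in Saos-2 1.52-fold higher (0.60). Its mean change was 0.48 (standard error 0.21, limma adjusted p = 0.688). The larger change was thus that of HSPD1 in MG-63 and, by 0.02, that of HSPE1 in Saos-2. Of the 5 HSPD1 pseudogene probe sets at a level of at least 6, 5 were above 0 in MG-63 (changes of 0.05 to 1.95) and 4 in Saos-2 (-0.49 to 0.83). Of the 10 of HSPE1, 9 were above 0 in each line (-0.03 to 1.23 in MG-63 and -0.09 to 1.07 in Saos-2), against 53.5% of all probe sets at that level in MG-63 and 60.5% in Saos-2.

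The 19 measured mitochondrial chaperone and protease genes did not share one direction, with 5 past 1.5-fold upward and 3 downward in MG-63 and 3 upward and 0 downward in Saos-2, and medians of 0.30 and -0.06. AFG3L2, a protease of the inner membrane, had log2 signals of 11.81 with sh-circ_0000073 and 10.72 with sh-NC in MG-63, and of 12.36 with sh-circ_0000073 and 11.30 with sh-NC in Saos-2. Its changes of 1.09 and 1.06 gave a mean of 1.08 (standard error 0.25, limma adjusted p = 0.538). The inner membrane proteases YME1L1 and OMA1 had negative changes, of -1.42 in MG-63 and -0.15 in Saos-2 for YME1L1 and of -1.10 and -0.49 for OMA1.

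The cytosolic chaperonin and prefoldin subunits were above 0 in both lines for 11 of 13 measured genes. Of all probe sets at a level of at least 6, 36.3% were above 0 in both. The list medians, MG-63 first, were 0.43 and 0.32, against 0.05 and 0.12 for those probe sets. Of the 13 genes, 3 passed 1.5-fold upward (2 after quantile normalization or median centring) and 1 downward in MG-63. In Saos-2, 1 passed upward and 0 downward. The upward one in Saos-2 was no longer past that size after quantile normalization or median centring. It was the chaperonin subunit CCT5, with changes of 1.13 in MG-63 and 0.61 in Saos-2. CCT3 had 0.80 and 0.31, and CCT7 had 0.59 and 0.32. limma called 0 of these genes, with 2 at an unadjusted p under 0.05. The chaperones of the endoplasmic reticulum had the lower median in MG-63, at -0.33 with 0 of 20 past 1.5-fold upward and 5 downward, while the Saos-2 median was 0.24 with 4 upward and 2 downward.

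**Figure D5:**
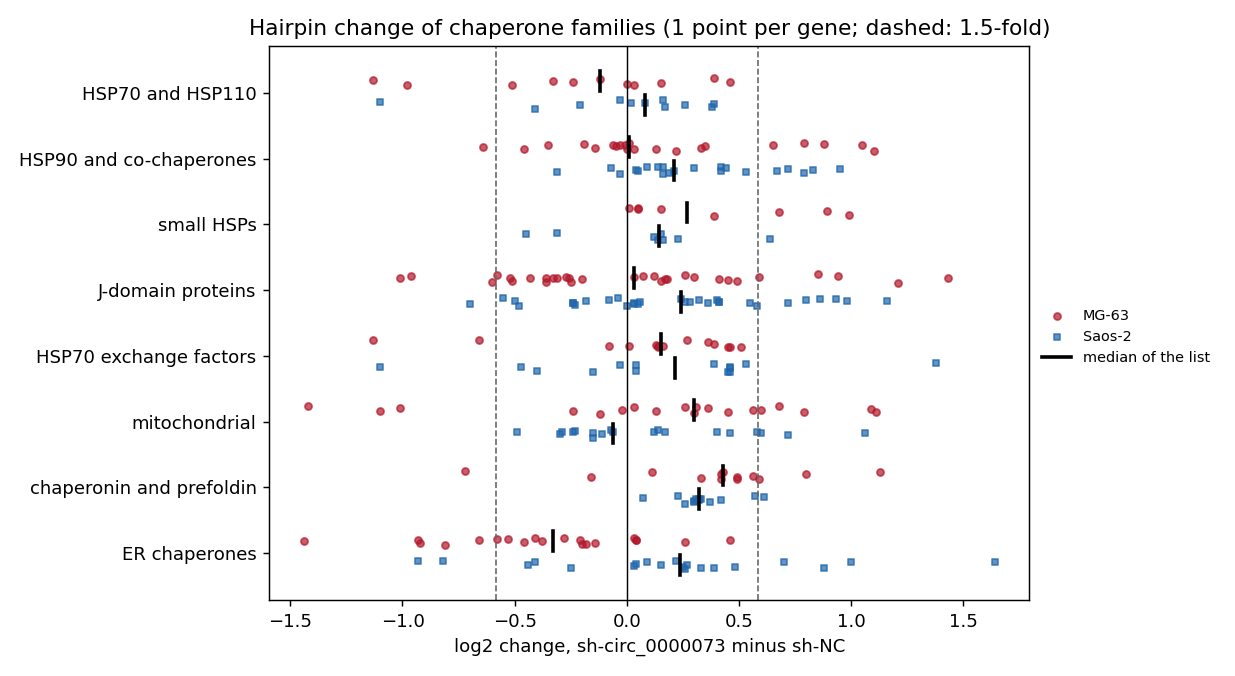
Log2 change, sh-circ_0000073 minus sh-NC, of each measured gene in 8 chaperone lists, with MG-63 as circles above and Saos-2 as squares below, the black bar at the list median and dashed lines at 1.5-fold. The chaperonin and prefoldin medians of 0.43 and 0.32 lie right of 0 in both lines. All probe sets at a level of at least 6 have medians of 0.05 (MG-63) and 0.12 (Saos-2). The endoplasmic reticulum medians of -0.33 in MG-63 and 0.24 in Saos-2 lie on opposite sides of 0.

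Genes known as HSF1 targets were counted together, a list that overlaps those above. Of 36 listed 30 were measured, and 6 passed 1.5-fold upward and 3 downward in MG-63, 4 upward and 1 downward in Saos-2, with medians of 0.16 and 0.25. After quantile normalization or median centring the upward count in Saos-2 was 2. Higher in both lines were 3, among them FKBP4 and HSPB8, and HSPA4L was lower in both, HSPB8 not passing in Saos-2 after either rescaling. limma called 0 of the 30 and 6 had an unadjusted p under 0.05. In the line comparison 12 were higher and 11 lower in MG-63 by limma, against 29.2% and 25.9% of all probe sets at a level of at least 6. The widest of these was SERPINH1, the collagen chaperone HSP47, with 13.83 and 13.66 in the MG-63 pair, against 4.07 and 4.03 in the Saos-2 pair, each with sh-circ_0000073 before sh-NC, but its second probe set lay under 4 on all 4 arrays and did not show this gap. A match to a 3-unit form lay in the windows of 5 of the 22 targets with a window that are not among the 10 genes. Counted by window this was 5 of 33 (15.2%), against 0.49% of all windows.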

How the data were processed

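Total RNA of 4 transfected cultures, 1 per condition, was labelled with a GeneChip WT Pico kit and hybridised to Affymetrix arrays. The authors deposited log2 signals per probe set, for which the submitters' processing notes name Affymetrix Expression Console. Its version, the summarisation and the background correction were not stated, and no scanner files, detection calls or depth were used. Samples were grouped by their labels.

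Of 135750 probe sets, 36176 had 1 symbol, 1119 had several and 98455 were unnamed here, after 623 symbols were updated through a RefSeq gene table. Only those with 1 symbol were used, and in lists a gene was represented by its probe set of highest mean. A hairpin change is sh-circ_0000073 minus sh-NC, called within a line by size (1.5-fold) with no p-value. limma 3.58.1 in R 4.3.3 was fitted over all 36176 with line and hairpin as terms, a trend of variance on mean and p-values adjusted by Benjamini-Hochberg (threshold 0.05), which leaves 1 residual degree of freedom, and was tested on simulated data. Nothing in the labels names separate cultures. The 1 residual degree of freedom of a gene is the difference between its hairpin changes in the lines, which limma moderates with the other genes. The p-values therefore measure no spread of repeated arrays, and a true difference in response between the lines counts as error. Other steps ran in Python 3.11.15 with pandas 2.3.3 and numpy 2.4.6. Start windows of 300 bases came from RefSeq, GRCh38.p14.

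The genes and lists were chosen with earlier results of these data known. Named beside the 10 genes are, from each list, up to 3 with the largest mean hairpin change and up to 2 with the largest line difference at a mean log2 signal of at least 6, RB1 and ALPL, the 3 brightest pseudogene probe sets, and HSPA1A and HSPA1B. Further list members are named in counts of 5 or fewer, as markers or as values chosen after they were seen. Alternatives were all probe sets, the level minimum, quantile normalization, median centring, no trend, robust variances, no line term, a 2-fold size and means over probe sets.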

Additional observations from a re-analysis of the deposited data

Results flagged for a closer look

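HSPB1, HSPH1 and HSBP1 were noted because the hairpin change had opposite directions in the lines. They do not stand out in this, since other listed genes had opposite signs and wider differences. Among these were BAG2 (0.51 in MG-63, -0.40 in Saos-2) and DNAJC8 (-0.52 in MG-63, 0.41 in Saos-2). The change of HSPB1 in MG-63 minus that in Saos-2 was 0.50 on the log2 scale (0.05 in MG-63, -0.45 in Saos-2). For HSPH1 it was 0.49 (0.46 in MG-63, -0.03 in Saos-2), and for HSBP1 it was -0.35 (-0.07 in MG-63, 0.28 in Saos-2). None of these differences was tested, since 4 arrays leave no residual degree of freedom for them, and opposite signs were found for 45.7% of all probe sets with 1 symbol and 40.1% of those at a level of at least 6. After quantile normalization HSPB1 was below 0 in both lines, at -0.08 in MG-63 and -0.48 in Saos-2.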

How the results depend on the processing

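The line differences of the 9 genes kept their direction and an adjusted p under 0.05 under all 6 alternatives of the limma fit, the highest being 0.0468 for BAG3 with all probe sets. Over both lines no hairpin change of the 9 genes was called under any of 7 alternatives, with the lowest adjusted p, 0.195, for HSPD1 at a level of at least 6. Over all probe sets limma called 0 hairpin changes, but 20 at a level of at least 6, 40 after quantile normalization and 8 with robust variances. The mean hairpin change of HSP90AA1, 0.085, turned to -0.029 (adjusted p = 0.994) after quantile normalization, and the cause was not tested. At a 2-fold size 1 of the 9 genes was higher (HSPD1) and 0 lower in MG-63, while Saos-2 had 0 higher. There, 0 were also higher after quantile normalization, with HSPE1 at 0.48, and after median centring, with HSPE1 at 0.54. Of the lists, at a level of at least 6 the HSP70 and HSP110 genes had 1 downward in MG-63 instead of 2, and the chaperonin and prefoldin subunits 0 instead of 1. The line term of the fit already pairs sh-circ_0000073 with sh-NC within each line, and the labels carry no replicate numbers for a further block. Leaving out an array leaves no residual degree of freedom, so this was not run, and the values within each line and each hairpin stand in for it. Signals far below 6 cannot be set apart from background here, since no detection calls were used.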

Other observations

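4 genes outside the naming rule were chosen after their values were seen. HSPA6, an HSP70 made almost only under stress, had log2 signals of 4.10 with sh-circ_0000073 and 5.08 with sh-NC in MG-63, and of 4.14 with sh-circ_0000073 and 3.98 with sh-NC in Saos-2, all under 6. HSPA9, the HSP70 of the mitochondrial matrix, had 16.91 with sh-circ_0000073 and 17.15 with sh-NC in MG-63, and 15.40 with sh-circ_0000073 and 15.23 with sh-NC in Saos-2, so that its hairpin changes of -0.24 and 0.17 had opposite signs. DNAJB5, a relative of DNAJB1, had 6.53 with sh-circ_0000073 and 5.10 with sh-NC in MG-63, and 6.42 with sh-circ_0000073 and 5.26 with sh-NC in Saos-2. Its changes of 1.43 and 1.16 were both past 2-fold, at a mean signal of 5.83. HMOX1, the stress-inducible heme oxygenase, had changes of 0.59 (MG-63) and 0.88 (Saos-2) at a mean signal of 5.64.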
